A study of Mus musculus with 12 samples.

Results

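Class 3 semaphorins are secreted guidance proteins, and the neuropilins and plexin D1 are cell surface proteins through which they act. The listed genes were 5 ligand genes (Sema3a, Sema3c, Sema3d, Sema3e and Sema3f) and 3 receptor genes (Nrp1, Nrp2 and Plxnd1), taken by symbol from the table of the whole series. All 8 were among its 14801 genes, and all 8 passed the filter on low values that left 13663 genes for the test. RNA sequencing gave their levels in primary cells of the cerebral cortex of wild type mouse fetuses. The cells of 6 cultures received the active thyroid hormone triiodothyronine (T3) at 10 nM and were collected 24 h later. Another 6 cultures, 1 from each of the same 6 fetuses (mouse 1 to 6), were kept without T3 in parallel. All cultures came from gestational day 17.5, grew for 9 days and then spent 24 h without the B27 supplement before T3 was added. The labels give no strain or sex of the fetuses, and do not say whether they were of 1 litter.

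A class 3 semaphorin usually binds a neuropilin, which has little signalling function of its own, and the complex signals through a plexin. Sema3a acts mainly through neuropilin 1, Sema3f through neuropilin 2 and Sema3c through either. Sema3e differs from the others in that it can bind plexin D1 directly, without a neuropilin. In the developing cortex Sema3a is known as a repellent of axons and an attractant of the apical dendrites of pyramidal neurons. Sema3c is known there as an attractant of cortical axons, and Sema3f as a repellent that also limits dendritic spines. Neuropilins also bind vascular endothelial growth factors (VEGF), and plexin D1 is best known from blood vessels.

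Sema3c RNA rose to 2.98 times its level without T3, and Plxnd1 RNA rose to 1.45 times. Nrp1 RNA fell to 0.781 times and Sema3a RNA to 0.755 times the level without T3. Of the 5 ligand genes 1 rose, 1 fell and 3 did not pass the test, and of the 3 receptor genes 1 rose, 1 fell and 1 did not pass. Among all genes tested 5.52% passed, 3.37% as higher and 2.14% as lower with T3. The listed genes had a median log2 change of -0.19, beside 0.003 over all genes tested. Levels are in CPM, reads of a gene scaled to a common library total, with TMM as a correction for library composition. A change is the difference of log2(CPM + 0.5) between the T3 culture and the no-T3 culture of the same mouse, which understates the change of low genes. Each p is from limma with the mouse as a block, adjusted over all genes tested, with a threshold of 0.05. The intervals given below come from the same fit, but are of single genes and are not adjusted.

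The libraries held 9273960 ± 1421889 reads with T3 and 7008618 ± 951368 without it (SD, n = 6 each), and in 6 of 6 mice more reads came from the T3 library (exact sign-flip permutation test, two-sided, p = 0.03125, the smallest that 6 mice allow). The known T3 targets Hr and Klf9 were at no less than 42.4 and 57.3 CPM in every T3 library, and at no more than 7.27 and 31.6 CPM in every no-T3 library. All 8 listed markers of cortical excitatory neurons were present, with summed levels of 1091 to 1403 CPM with T3 and 1206 to 1460 CPM without it. Markers of astrocytes were higher in sum with T3 in 6 of 6 mice (1175 to 3077 CPM, against 781 to 2618 CPM), and 3 of 6 tested rose. Markers of the oligodendrocyte lineage were also higher in sum in 6 of 6 mice (449 to 565 CPM, against 346 to 500.4 CPM), and 3 of 8 tested rose. The part of either cell type in the changes below was not tested. In bulk RNA, more or fewer cells of a type cannot be told apart from more or less RNA per cell. The no-T3 library of mouse 4 stood apart, with 1213 CPM summed over 3 muscle genes (Myh6, Myh7 and Ttn) against at most 6.88 CPM in any other library. Values without mouse 4 are given for those of the 8 genes that passed.

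**Figure D1:**
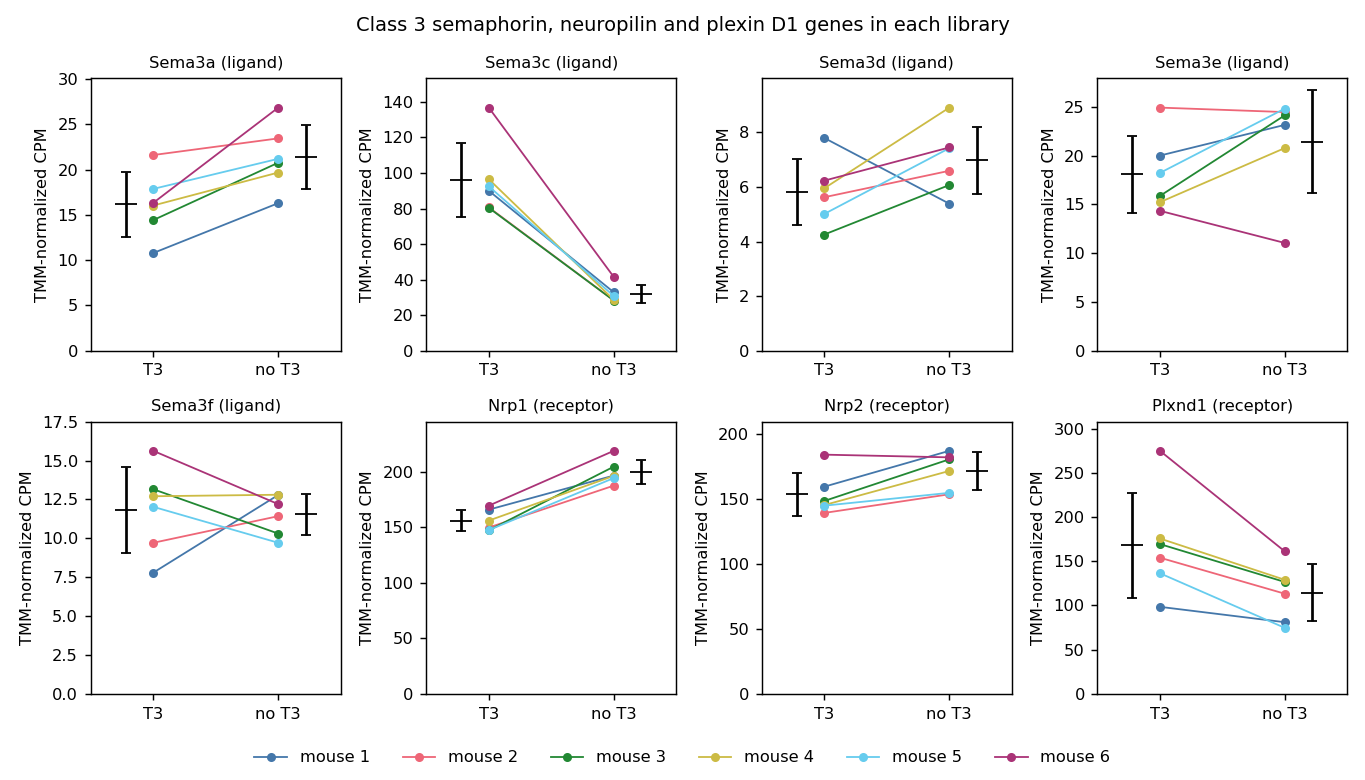
Level of each of the 8 genes in TMM-normalized CPM (vertical axis, from 0) in the T3 and no-T3 library of each mouse. Lines join the 2 libraries of a mouse and black marks give mean ± SD (n = 6). The T3 values of Sema3c (80.4 to 137 CPM) all lie above its no-T3 values (28.2 to 41.5 CPM), and those of Nrp1 all lie below.

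Sema3c, known as an attractant of cortical axons, had the clearest change of the 8 genes. Its lowest, median and highest levels were 80.4, 91.2 and 137 CPM with T3, against 28.2, 29.7 and 41.5 CPM without T3. No T3 library overlapped with any no-T3 library, and the library of mouse 6 was the highest in both groups. Within a mouse the T3 level was 2.74, 2.85, 2.85, 3.38, 3.01 and 3.30 times the no-T3 level in mouse 1 to 6. By mouse the change ran from 1.44 to 1.74 on the log2 scale, a spread that was small beside its size. In the fit the change was 1.57 (SE 0.061, 95% interval 1.45 to 1.70, adjusted p = 6.92e-13), and it held rank 2 by p among all genes tested. Without mouse 4 it was 1.54. The gene lies on chromosome 5 from 17574281 to 17730268 of the build GRCm38, on the plus strand.

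Sema3a, known as a repellent of axons and an attractant of apical dendrites, fell, from a lower level than that of Sema3c. Its lowest, median and highest levels were 10.8, 16.2 and 21.6 CPM with T3, against 16.3, 20.97 and 26.8 CPM without T3. The ranges overlapped, but the T3 library was the lower one in 6 of 6 mice. The change was -0.40 (SE 0.090, 95% interval -0.59 to -0.22, adjusted p = 0.00827), and by mouse it ran from -0.70 in mouse 6 to -0.12 in mouse 2. Without mouse 4 it was -0.43 (adjusted p = 0.0166), and the adjusted p was 0.0469 without mouse 3 and 0.0475 without mouse 6. The call was lost in the fit without the mouse as a block (adjusted p = 0.265). The reads behind it were few, 83 to 209 per library.

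Sema3e, the ligand that binds plexin D1, did not pass the test. It had 14.3, 17.05 and 24.9 CPM with T3 (lowest, median and highest), against 11.0, 23.6 and 24.8 CPM without T3. The groups overlapped, and mouse 6 stood apart without T3, at 11.0 CPM where the other 5 had 20.8 to 24.8 CPM. The change was -0.21 (95% interval -0.43 to 0.01, adjusted p = 0.306), below 0 in 4 of 6 mice. Sema3d, a ligand related to Sema3a, was the lowest of the 8 genes, with 4.26, 5.79 and 7.79 CPM with T3, against 5.38, 7.01 and 8.91 CPM without T3. Its change was -0.25 (95% interval -0.54 to 0.05, adjusted p = 0.393), with a T3 level below the no-T3 level in 5 mice and above it in mouse 1. Sema3f, the neuropilin 2 ligand, had 7.79, 12.4 and 15.6 CPM with T3, against 9.72, 11.8 and 12.8 CPM without T3. Its change was 0.01 (95% interval -0.25 to 0.27, adjusted p = 0.984), above 0 in 3 of 6 mice and below in the other 3. The intervals of Sema3d, Sema3e and Sema3f do not reach the change of Sema3c, but those of Sema3d and Sema3e include that of Sema3a, and whether these ligands differ from Sema3a was not tested.

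**Figure D2:**
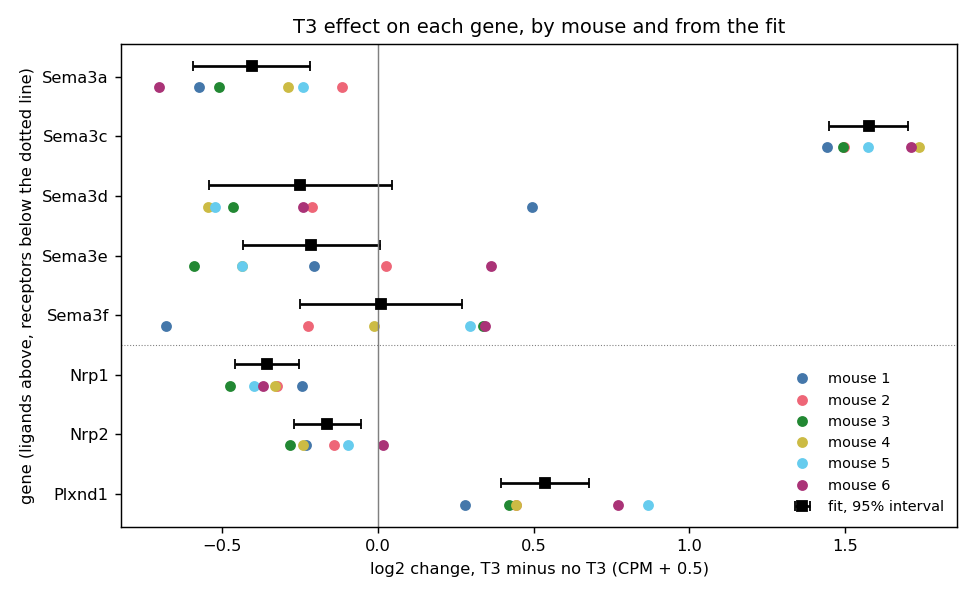
Change of each gene with T3 on the log2(CPM + 0.5) scale (horizontal axis), in each mouse (coloured points) and from the fit over 6 mice (black squares with 95% interval). All 6 mice lie right of 0 for Sema3c and Plxnd1 and left of 0 for Sema3a and Nrp1.

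Among the receptor genes, Nrp1, the neuropilin that Sema3a needs, fell by a small factor in every mouse. Its lowest, median and highest levels were 147, 152.8 and 169 CPM with T3, against 187, 196 and 219 CPM without T3. The 2 groups did not overlap. Of the 8 genes only Sema3c and Nrp1 were so separated, and 1.68% of all genes tested were. The T3 level was 0.844, 0.799, 0.720, 0.795, 0.759 and 0.774 times the no-T3 level in mouse 1 to 6. The change was -0.36 (SE 0.049, 95% interval -0.46 to -0.25, adjusted p = 8.10e-05), and -0.36 without mouse 4 (adjusted p = 0.000606). Nrp1 lies on the plus strand of chromosome 8 from 128358604 to 128503363.

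Nrp2, the receptor of Sema3f, did not pass. It had 139, 146.9 and 184 CPM with T3 (lowest, median and highest), against 154, 176 and 187 CPM without T3. The T3 library was lower in 5 of 6 mice, and mouse 6 was at 184 CPM with T3 and 182 CPM without it. The change was -0.16 (SE 0.052, unadjusted 95% interval -0.27 to -0.05, adjusted p = 0.0772). It passed in 2 of 17 other settings, without mouse 6 and after all libraries were thinned to the depth of the shallowest (adjusted p = 0.0411 and 0.0290, with a range of 0.0290 to 0.445 over the 17). The ratio of Nrp1 to Nrp2 reads was 1.02 ± 0.058 with T3 and 1.17 ± 0.074 without T3 (SD, n = 6 each). The change of Nrp1 minus that of Nrp2 averaged -0.19 ± 0.13 (SD, n = 6) and was below 0 in 6 of 6 mice, from -0.38 in mouse 6 to -0.01 in mouse 1. This pair was chosen after its values were seen, and no test is given.

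Plxnd1, the plexin that Sema3e binds directly, was the receptor gene that rose. Its lowest, median and highest levels were 98.5, 161.7 and 275 CPM with T3, against 74.6, 119.9 and 161.0 CPM without T3. The groups overlapped, and the mice differed widely. Mouse 1 and mouse 5 were the lowest and mouse 6 the highest in both groups. Within each mouse the T3 library was the higher one, by 1.21, 1.36, 1.34, 1.36, 1.83 and 1.71 times in mouse 1 to 6. The change was 0.54 (SE 0.067, 95% interval 0.40 to 0.68, adjusted p = 3.32e-05), and 0.56 without mouse 4 (adjusted p = 0.000169). Without the mouse as a block the call was lost (adjusted p = 0.480). Plxnd1 lies on the minus strand of chromosome 6 from 115954811 to 115995005.

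Endothelial cells are a known source of plexin D1 RNA, and their part in its level or change was not tested. Of 9 endothelial markers 4 were among the listed genes (Pecam1, Esam, Kdr and Flt1), and Cldn5, Cdh5, Tek, Tie1 and Emcn were not. Their summed level was 7.45 to 30.9 CPM with T3 and 7.32 to 36.9 CPM without T3, and it was higher with T3 in 3 of 6 mice. The highest sum without T3 was that of mouse 4, and in the other 5 mice it reached 25.04 CPM. Kdr, a VEGF receptor gene, was at 4.35 to 27.0 CPM with T3 and at 3.08 to 20.9 CPM without T3. None of the 3 tested passed, and the change of Kdr was -0.19 (adjusted p = 0.717). Of 9 markers of mural cells and fibroblasts 8 were listed, and 1, Dcn, fell (change -0.47, adjusted p = 0.00806). Their sum was 61.2 to 224 CPM with T3, against 109 to 224 CPM in the no-T3 libraries other than that of mouse 4, which had 509 CPM. Within a mouse this sum was higher with T3 in 1 of 6. Dcn was at 38.0 CPM in that library, against at most 31.7 CPM in any other, and its change without mouse 4 is not given.

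Thyroid hormone receptors are known to bind the half-site AGGTCA, and classically a pair of these half-sites in the same direction with 4 bases between. The 250 bases before the start of each gene in the RefSeq table of promoters (build GRCm38.p6) were searched for both on both strands. Windows were found for 7 of the 8 genes, all but Sema3f. The half-site was in 2 of the 7, those of Nrp1 and Plxnd1, and in 14.0% of the 32851 windows of all genes. These windows are shown because they hold the half-site and lie in no annotated exon of their gene. Both hold the half-site on the reverse strand, as tgacct in the printed direction, and capitals mark it.
Nrp1, chr8:128358823-128359072, plus strand: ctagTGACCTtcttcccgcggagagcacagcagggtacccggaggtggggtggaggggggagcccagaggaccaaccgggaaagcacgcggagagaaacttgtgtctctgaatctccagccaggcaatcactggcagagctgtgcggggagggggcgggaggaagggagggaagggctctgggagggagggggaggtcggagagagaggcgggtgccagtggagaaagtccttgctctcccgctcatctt
Plxnd1, chr6:115995006-115995255, minus strand: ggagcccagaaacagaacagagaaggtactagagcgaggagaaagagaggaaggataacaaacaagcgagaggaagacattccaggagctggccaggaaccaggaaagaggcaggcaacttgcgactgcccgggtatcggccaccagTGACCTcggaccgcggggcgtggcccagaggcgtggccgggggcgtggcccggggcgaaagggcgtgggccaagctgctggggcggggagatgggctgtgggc
The half-site begins 246 bases before the RefSeq start of Nrp1 (128359073) and 103 bases before that of Plxnd1 (115995005). GENCODE begins Nrp1 at 128358604, so the printed Nrp1 window lies inside the GENCODE gene, but in none of its exons. The mismatch was far larger for Sema3a, with a RefSeq start at 13396784 and a GENCODE start at 13125414. Its window lies inside the GENCODE gene, and the bases before the GENCODE start were not searched. The paired motif was in none of the 7 windows and in 0.0152% of all windows. The Sema3c window, with 78.4% G and C beside a median of 52.4% over all windows, held neither. It lies within annotated Sema3c exons in GENCODE, which begins the gene at 17574281, and is not printed. A match describes letters in a window and does not show that a receptor binds there.

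Set against the receptors per exon length, the ligand sum was higher with T3, and Sema3c was the ligand gene that rose. The median log2 change was -0.21 over the 5 ligand genes and -0.16 over the 3 receptor genes. The summed level of the 5 ligand genes was 19.5 ± 3.10 CPM per kb with T3 and 11.3 ± 0.460 CPM per kb without T3 (SD, n = 6 each), and it was higher in 6 of 6 mice. That of the 3 receptor genes was 51.9 ± 9.60 CPM per kb with T3 and 50.5 ± 5.88 CPM per kb without T3, higher in 4 of 6 mice. Within the receptor sum, Nrp1 fell and Plxnd1 rose. The ratio of the ligand sum to the receptor sum was 0.335 to 0.415 with T3, against 0.201 to 0.261 without T3, and within a mouse it was 1.59 to 1.79 times as high. Without Sema3c, the sum of the other 4 ligand genes was 6.07 ± 0.505 CPM per kb with T3 and 6.88 ± 0.336 CPM per kb without T3, lower with T3 in 5 of 6 mice. Its ratio to the receptor sum was 0.0915 to 0.140 with T3, against 0.106 to 0.161 without T3, and was lower in 6 of 6 mice. No test is given for these sums, since the genes were chosen with earlier results known.

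Sema3c made up most of the ligand sum once T3 was present. Its share of the summed level per kb was 68.5 ± 4.14% with T3 (62.5 to 74.8%), against 39.1 ± 4.68% without T3 (35.2 to 47.8%). Its level per kb was 7.25 to 16.3 times that of Sema3a with T3, against 2.34 to 3.92 times without T3, and the ratio was higher in 6 of 6 mice by 3.10 to 5.42 times. With the longest transcript as the length, the same level ratio was 4.03 to 9.05 with T3, against 1.30 to 2.18 without T3. The level of Sema3c per kb with T3, 13.5 ± 2.93, was within the spread of that of Nrp2 with T3, 12.97 ± 1.38. Without T3 the same values were 4.44 ± 0.717 for Sema3c and 14.5 ± 1.22 for Nrp2. By the longest transcript Sema3c stood below Nrp2 in both groups, at 17.5 ± 3.81 beside 22.9 ± 2.44 CPM per kb with T3 and 5.77 ± 0.933 beside 25.5 ± 2.14 CPM per kb without T3.

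**Figure D3:**
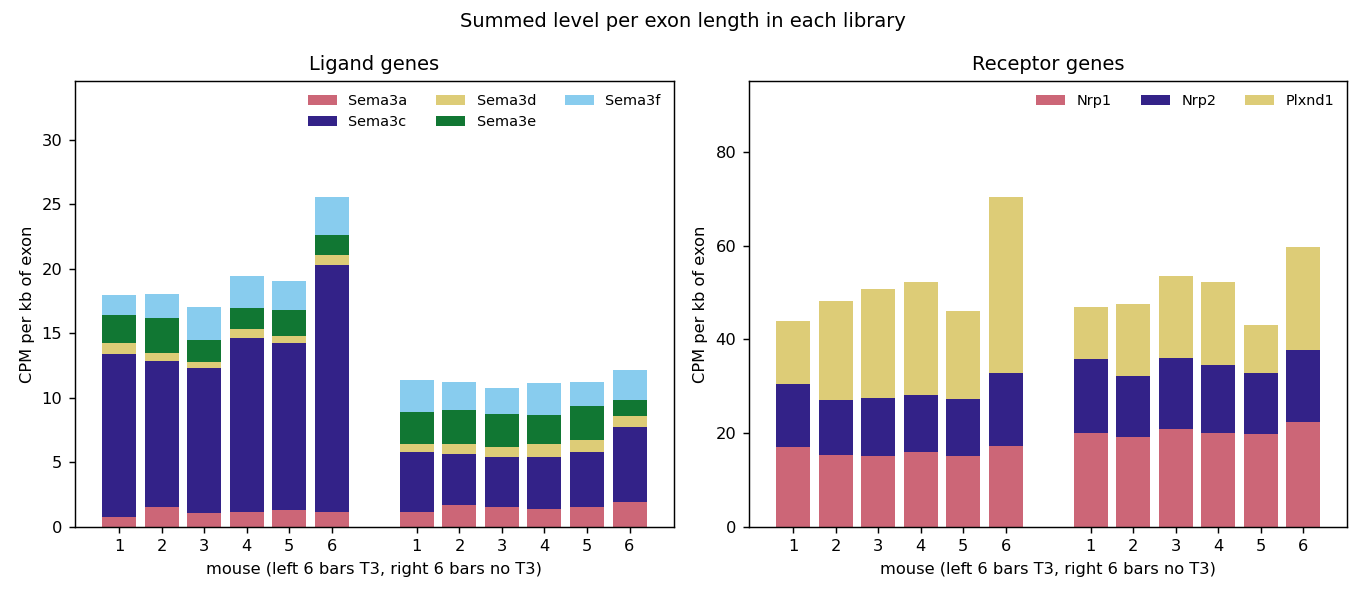
Summed level of the 5 ligand genes (left) and the 3 receptor genes (right) in CPM per kb of exon (vertical axis), stacked by gene, with the 6 T3 libraries left of the 6 no-T3 libraries in each panel. The ligand bars reach 17.04 to 25.6 with T3 and 10.7 to 12.1 without T3, and the Sema3c segment is larger with T3, while the other 4 ligands together averaged 6.07 with T3 and 6.88 without T3.

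The order of the levels per kb was Plxnd1, Nrp1, Sema3c, Nrp2, Sema3f, Sema3e, Sema3a and Sema3d with T3. The gap between Plxnd1 (23.0 ± 8.11) and Nrp1 (15.9 ± 0.986) was smaller than the spread of Plxnd1, Nrp1 stood above Sema3c by less than the spread of Sema3c, and Sema3f (2.28 ± 0.529) and Sema3e (1.95 ± 0.424) did not differ beyond their spread. Without T3 the order was Nrp1 (20.4 ± 1.11), Plxnd1 (15.6 ± 4.43), Nrp2 (14.5 ± 1.22), Sema3c, Sema3e (2.30 ± 0.569), Sema3f (2.22 ± 0.250), Sema3a (1.54 ± 0.257) and Sema3d (0.811 ± 0.144). There Plxnd1 and Nrp2, and Sema3e and Sema3f, did not differ beyond their spread. The length used is that of all annotated exons of a gene. With the longest transcript as the length, Nrp1 stood above Plxnd1 with T3 (42.8 and 24.3 CPM per kb), and Nrp2 above Sema3c (22.9 and 17.5). Sema3a was then barely above Sema3e with T3 (2.73 and 2.64), and no spread is given for this pair. Without T3, Nrp2 stood above Plxnd1 by that length (25.5 and 16.5). Below Sema3c the order there was Sema3a (3.60), Sema3f (3.40), Sema3e (3.12) and Sema3d.

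Within 500 kb of the 4 genes that passed, 15 other genes were tested, 12 of them near Plxnd1, and 1 passed (6.67%, beside 5.52% of all genes tested). Sema3d, Sema3a, Sema3e and Sema3c lie in this order on chromosome 5 within 5.35 Mb, all on the plus strand, with 3.32 Mb between Sema3e and Sema3c. Within 500 kb of Sema3c 1 other gene was tested, the fatty acid transporter gene Cd36, at 1.17 ± 0.279 CPM with T3 and 3.15 ± 5.02 CPM without T3 (SD, n = 6 each, adjusted p = 0.653). Without T3, mouse 4 alone had 13.4 CPM of Cd36, and the other 11 libraries reached at most 1.62 CPM. Within 500 kb of Sema3a the tested neighbour was Sema3e, and within 500 kb of Nrp1 it was the integrin gene Itgb1, with a change of 0.00 (adjusted p = 0.998). Of the genes near Plxnd1 1 fell, Cand2, at 9.12 ± 1.70 CPM with T3 and 12.8 ± 3.51 CPM without T3 (change -0.45, adjusted p = 0.0187). Cand2 was at 18.6 CPM without T3 in mouse 4, against at most 15.75 CPM in any other library, and its call was lost without that mouse (change -0.37, adjusted p = 0.0863).

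The genes whose pattern over the 12 libraries was most like that of each gene that passed were found by the root mean square difference of log2 values, each centred on its own mean. For Sema3c these were Klf9 (0.352), the deiodinase gene Dio3 (0.373) and the cell adhesion gene Cadm2 (0.377), beside a median of 0.837 over 13535 genes. For Plxnd1 they were the calcium-binding protein gene Calb2 (0.221), the protease gene Prss12 (0.227) and Rrp12 (0.257), beside a median of 0.521. For Sema3a they were Nwd2 (0.112), the teneurin gene Tenm1 (0.138) and the kinase gene Stk32b (0.141), beside a median of 0.371. For Nrp1 they were the pseudogene Zfp939 (0.070), Ttc9c (0.079) and the cyclin gene Ccng2 (0.080), beside a median of 0.260. The measure uses the change with T3 as well as the differences between mice, and it says nothing of shared control.

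Of 52 tested genes from a list of 55 that act with these ligands and receptors, 5 rose and 2 fell, or 13.5% beside 5.52% of all genes tested, with a median log2 change of 0.01. Their changes ran from -0.32 to 0.39. The lists were written with earlier results of these data known, so their share is no independent support for a change of the pathway. Among the plexin A genes, the usual signalling partners of neuropilins, 1 of 4 rose, Plxna4, at 312 ± 42.1 CPM with T3 and 277 ± 56.9 CPM without T3 (change 0.19, adjusted p = 0.0471). Plxna2, the one with the highest CPM, had a change of 0.01 (adjusted p = 0.920). None of the 4 adhesion coreceptor genes passed, with Chl1 at -0.07 (adjusted p = 0.561). None of the 7 genes of VEGF ligands and receptors passed, with Vegfa at 0.14 (adjusted p = 0.372). Sema3b, the other class 3 ligand tested, stood at 3.74 ± 1.14 CPM with T3 and 3.91 ± 0.842 CPM without T3 (adjusted p = 0.845).

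Of 5 proteases that cut class 3 semaphorins, the proprotein convertase gene Pcsk5 rose (31.7 ± 2.20 CPM with T3 and 26.0 ± 3.03 CPM without T3, change 0.29, adjusted p = 0.0479). The metalloprotease gene Adamts1 fell (37.8 ± 4.79 CPM with T3 and 44.9 ± 8.13 CPM without T3, change -0.24, adjusted p = 0.0457). The calls of Plxna4, Pcsk5 and Adamts1 were each lost without any one of 4 or 5 of the mice, and with DESeq2. Of 19 tested adaptors and GTPases 2 rose. Rnd1, a small GTPase that binds plexins, had 43.1 ± 8.55 CPM with T3 and 33.9 ± 6.02 CPM without T3 (change 0.33, adjusted p = 0.00829), a call lost without mouse 3. Mical2, of a family of actin-oxidising enzymes, had 118 ± 21.5 CPM with T3 and 95.3 ± 16.8 CPM without T3 (change 0.30, adjusted p = 0.00345). The GTPase gene Rac1 had a change of -0.03 (adjusted p = 0.845), with the antisense gene Daglb over 51.4% of its exons.

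Of 12 growth cone effectors 1 rose and 1 fell. Pak1, a kinase downstream of Rac, rose to 332 ± 19.8 CPM with T3, against 261 ± 16.2 CPM without T3 (SD, n = 6 each), in 6 of 6 mice (change 0.35, SE 0.051, adjusted p = 0.000190). It was the gene of these lists whose call held in every other setting, the fit without the block included. Dpysl2, which encodes the collapsin response mediator protein CRMP2 through which Sema3a collapses growth cones, fell to 425 ± 37.4 CPM with T3, against 490.2 ± 44.0 CPM without T3, in 6 of 6 mice (change -0.21, SE 0.044, adjusted p = 0.00647). Its relative Dpysl3, the gene of the list with the highest CPM, did not pass, with a change of -0.15 (adjusted p = 0.0543).

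**Figure D4:**
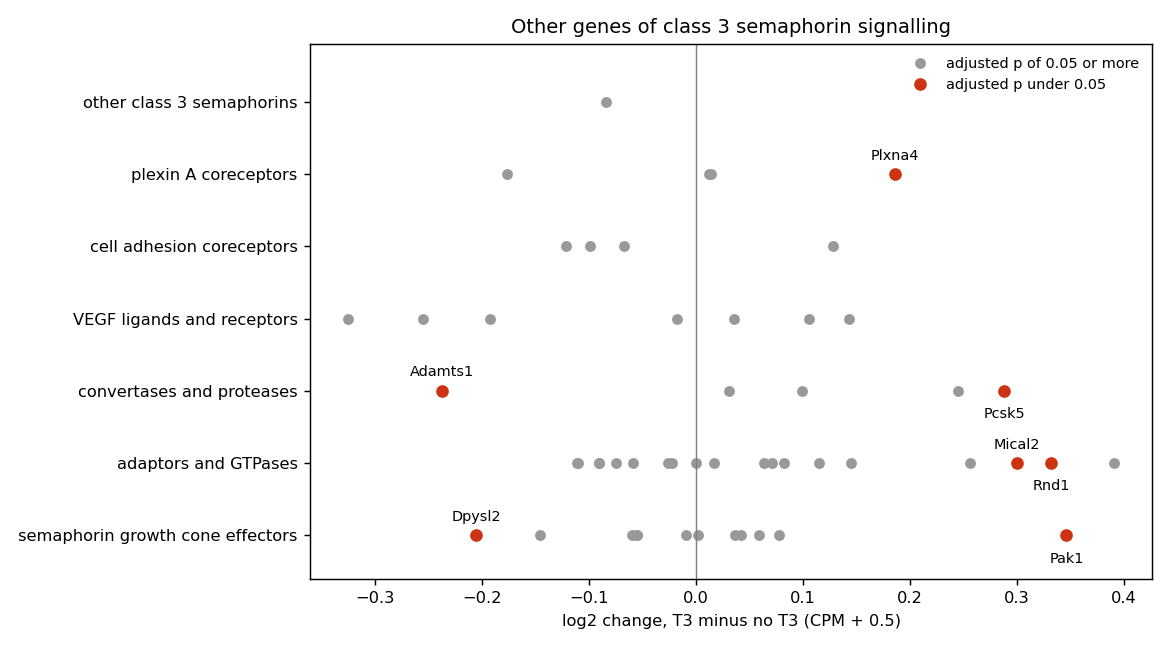
Change with T3 on the log2(CPM + 0.5) scale (horizontal axis) of the 52 tested genes that act with class 3 semaphorins, by list (vertical axis), 1 point a gene. The 7 genes that passed are named, and the points run from -0.32 to 0.39, well inside the change of Sema3c.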

How the data were processed

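RNA was sequenced from 12 cultures, 1 with and 1 without T3 from each of 6 fetuses. Per the labels' protocols, libraries were made from 500 ng of total RNA with the TruSeq RNA v2 kit and read as single reads of 75 bases. This kit does not mark strand. CASAVA, FastQC, Bowtie, TopHat, HTSeq and edgeR and the build GRCm38 are named without versions, per the submitters' processing notes. Each deposited value is a normalized signal for 1 Ensembl gene, described as TMM-normalized. The unit was taken as CPM of a TMM-scaled library size, since the values of a library summed to 969044 to 1044783. The table lists 14801 genes, of which 14648 matched GENCODE release M21 by ID. In each library 100% of the values were whole multiples of 1 read (tolerance 0.01 reads), which gave totals of 5272092 to 10837895 reads. One read was worth 0.0911 to 0.186 CPM. Depth precision covers counting error only, and 3 reads were 0.273 to 0.557 CPM.

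Values were tested as log2(CPM + 0.5) with limma 3.58.1 (trend and robust options, R 4.3.3), the mouse as a block, and Benjamini-Hochberg adjustment over the 13663 genes that edgeR 4.0.16 kept by filterByExpr. The block follows the series' design text, which pairs the cultures by fetus. Deviations of same-mouse libraries from their group means correlated at 0.237 to 0.638, and each library matched its own partner best. Simulated counts without differences between mice were used to check the fit, so they do not check the block. The alternatives were no block, pseudocounts of 0.1 and 1, no filter, a mean of at least 5 CPM, RLE scaling, plain CPM, thinning to one depth, edgeR, limma-voom and DESeq2 1.42.0 on the recovered reads, and leaving out each mouse. The comparison of Nrp1 with Nrp2 and its alternatives were added after seeing the data. Levels per kb divide CPM by the exon length of a gene in GENCODE.

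The 8 genes, the lists of pathway genes and the markers were chosen with earlier results of these data known. Of the pathway lists, each gene past the threshold and the gene of the highest mean CPM in each list were named. The 3 genes of most similar pattern were named for each of the 8 genes that passed. Promoter windows came from RefSeq, build GRCm38.p6.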

Additional observations from a re-analysis of the deposited data

Results flagged for a closer look

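In 24 groups of 6 values (levels with T3, levels without T3 and changes of each of the 8 genes), the highest and the lowest value were compared with the rest. In 4 groups the gap to the nearest other value, divided by the whole range, was above Dixon's critical value at the 95% level. Chance flags about 1 in 20 groups.

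Mouse 6 was the farthest in 3 of the 4. Its Sema3c level was the highest with T3, at 136.8 CPM (gap 0.715 of the range), and the highest without T3, at 41.47 CPM (gap 0.652). Its Sema3c change was within the range of the other mice. Its Sema3e level without T3 was the lowest, at 11.04 CPM (gap 0.706). Mouse 1 stood apart in the change of Sema3d, at 0.495 on the log2 scale (gap 0.68), where the other 5 mice were below 0.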

How the results depend on the processing

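Over 17 other settings the change of Sema3c stayed at 1.54 to 1.60 and that of Nrp1 at -0.38 to -0.33, and both passed in all 17. Plxnd1 (0.47 to 0.59) and Sema3a (-0.46 to -0.35) passed in 16 and were lost without the replicate block, which pairs the cultures of a mouse (Plxnd1 0.54, adjusted p = 0.480; Sema3a -0.40, adjusted p = 0.265). Without the block 178 of all genes passed, 125 higher and 53 lower, and of the pathway lists 1 higher (Pak1) and 0 lower. Leaving out the block changed no other call among the 8 genes. Nrp2 passed after thinning (-0.20) and without mouse 6 (-0.20), with a range of -0.20 to -0.14 over single mice left out. Sema3d and Sema3e passed in none of the 17. Sema3f had a change of -0.055 without mouse 3, -0.046 without mouse 5 and -0.056 without mouse 6, within a range of -0.056 to 0.15, and passed nowhere. The cause was not tested.

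Leaving out 1 mouse gave 459 to 854 genes past the threshold, 304 to 526 higher and 155 to 328 lower. The lowest of each came without mouse 3, and without mouse 5 the lower genes were 191. In the pathway lists 3 to 4 genes were then higher and 1 to 2 lower. RLE scaling, thinning, edgeR and DESeq2 each gave 3 higher. All genes past the threshold numbered 782 with edgeR, 798 with limma-voom and 522 with DESeq2. The change of Nrp1 minus that of Nrp2 was -0.23 to -0.16 with 1 mouse left out. The log2 change of the ligand to receptor ratio was 0.69 to 0.78 with another length, with no length correction or with 1 mouse left out, and it was computed in no other setting. Near Plxnd1, the call of Cand2 was lost without mouse 4. Depth limits Sema3d most, with 40 to 63 reads per library.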
